A study of Mus musculus with 10 samples.

Results

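Metastatic melanoma cells sorted as GFP-positive, called c-Myc-high by the study, were compared with GFP-negative cells, called c-Myc-low, from lymph node metastases of mice. All 3 GFP-positive and all 3 GFP-negative lymph node libraries were used, 6 of the 10 libraries of the series, and every gene name in the table was considered. The other 4 libraries, 2 GFP-positive and 2 GFP-negative from primary skin melanoma, entered the estimate of the spread and a test of whether the difference depends on the site. Mice of all groups had the strain C57BL/6:SV129. The labels state no age, no treatment and none of the alleles that drive the tumours or the reporter. Cells were sorted from fresh tumours and their RNA was amplified before library preparation, per the labels' protocols. Those protocols speak of triplicates and name no separate animals, so every p-value measures only the spread between these samples, which may be technical.

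c-Myc is a transcription factor that pairs with Max and binds the E-box sequence in promoters. It is known for raising transcription of genes for ribosomes, nucleotide synthesis, mitochondria and the cell cycle. AMPK, named in the study's title, is a kinase that senses low cellular energy, restrains biosynthesis and favours catabolism. Melanoma cells derive from pigment cells, which are marked by Mitf, Sox10 and the enzymes of melanin synthesis.

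Levels below are CPM (counts scaled to a common library total), corrected with TMM factors for differences in library composition, and fold changes are c-Myc-high over c-Myc-low on the log2 scale. In all sentences with 3 values for a class, they stand for replicates 1, 2 and 3 in that order. Overlap of a gene's levels between the classes is judged on CPM unless RPKM is named. The deposited estimated counts summed to 4425636, 4328063 and 2641865 in the c-Myc-high libraries and to 6009730, 5855639 and 4740015 in the c-Myc-low libraries. A count of 3 in 1 of these libraries stood for 0.499 to 1.14 CPM.

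The c-Myc-high libraries did not form a uniform group. Pearson's r of log2 CPM across genes, whose values are not independent replicates, was 0.587 to 0.674 between c-Myc-high libraries and 0.806 to 0.911 between c-Myc-low libraries. Of all 15 pairs, c-Myc-high replicate 2 and c-Myc-low replicate 3 were the most alike, with r = 0.918. c-Myc-high replicates 1 and 3 held many transcripts of salivary gland genes, and c-Myc-high replicate 2 and c-Myc-low replicate 3 held many of neutrophil and B cell genes. Results are therefore also given without c-Myc-high replicate 2, and without c-Myc-high replicates 1 and 3.

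**Figure D1:**
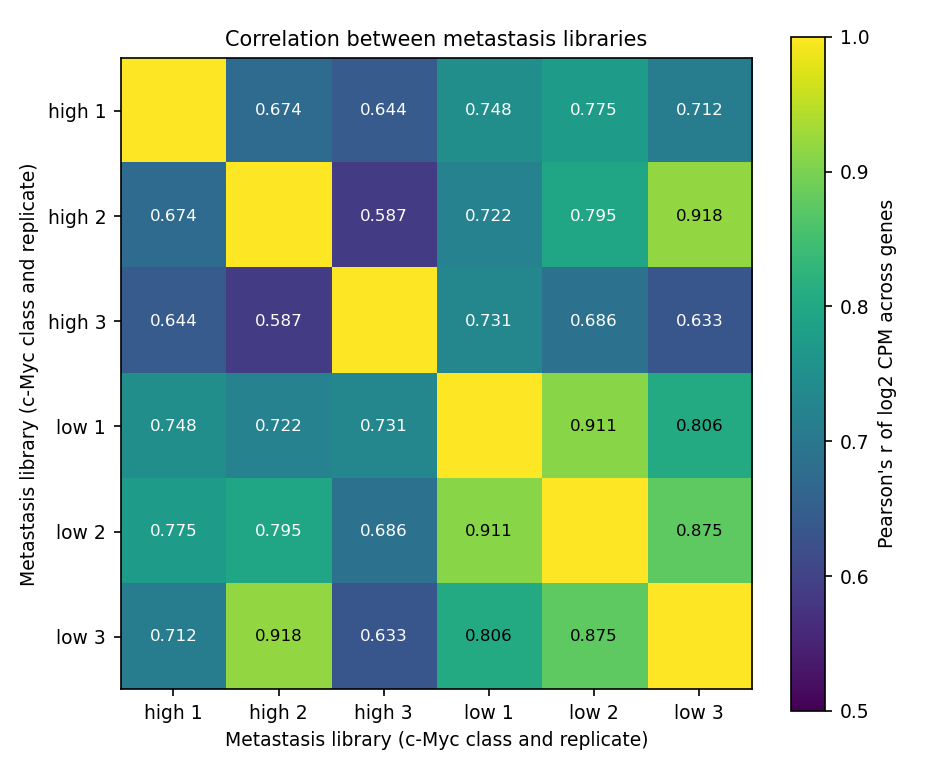
Pearson's r of log2 CPM across genes for each pair of the 6 metastasis libraries, labelled by c-Myc class and replicate, with the colour scale giving r. The c-Myc-high libraries reach at most 0.674 with each other, while c-Myc-high replicate 2 reaches 0.918 with c-Myc-low replicate 3.

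No gene passed an adjusted p of 0.05 in edgeR's quasi-likelihood test of 16805 genes, with 0 higher (0%) and 0 lower (0%) in c-Myc-high cells. The lowest adjusted p was 0.58. At an unadjusted p under 0.05, 512 genes had higher values (3.05% of those tested) and 295 lower values (1.76%). The 3 c-Myc-high libraries lay above all 3 c-Myc-low libraries for 552 genes (3.28%) and below them for 1285 (7.65%). The common biological coefficient of variation between replicates was 0.876. DESeq2, with 16129 genes given an adjusted p, called 71 genes higher (0.44%) and 15 lower (0.093%). Of these, 15 of the 71 and 8 of the 15 were at 0 counts in every library of the other class, and in 27 of the 71 and 11 of the 15 the libraries of the classes did not overlap. Some DESeq2 calls rested on a few counts. Skint9 had 0.511 CPM in c-Myc-high replicate 3 alone and Slc6a4 1.43 CPM in c-Myc-high replicate 2 alone. Tmigd1, called lower, had at most 0.51 CPM in c-Myc-low libraries. Without c-Myc-high replicate 2, edgeR called 33 of 16580 genes higher (0.199%) and 0 lower (0%), and all 33 were among the 71 genes of DESeq2. Without c-Myc-high replicates 1 and 3 it called 0 higher and 0 lower, with 145 and 412 genes at an unadjusted p under 0.05. In that fit 1 library stands for the c-Myc-high class and is assumed to vary like the other groups.

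The lowest p-values belonged to glandular kallikreins. These are secreted serine proteases of the Klk1 family, encoded side by side and produced above all by salivary glands. Their promoters on mouse chromosome 7 are shown first because the whole family had higher values in c-Myc-high libraries. The 250 bases before the start of 3 members, read from RefSeq on GRCm38.p6 and lying on the plus strand, are given 5′ to 3′. Capitals mark a run of 12 bases shared by all 3.

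Klk1, chr7:44225110-44225359: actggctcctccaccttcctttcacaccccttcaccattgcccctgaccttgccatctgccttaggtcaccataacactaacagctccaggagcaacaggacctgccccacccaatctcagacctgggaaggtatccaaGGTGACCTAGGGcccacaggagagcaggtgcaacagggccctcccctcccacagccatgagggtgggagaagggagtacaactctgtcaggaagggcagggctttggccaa
Klk1b5, chr7:44216224-44216473: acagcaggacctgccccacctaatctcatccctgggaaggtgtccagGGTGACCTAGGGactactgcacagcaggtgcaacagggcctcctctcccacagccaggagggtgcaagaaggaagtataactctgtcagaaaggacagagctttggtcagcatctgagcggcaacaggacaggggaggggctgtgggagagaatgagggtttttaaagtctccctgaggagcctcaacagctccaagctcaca
Klk1b4, chr7:44207183-44207432: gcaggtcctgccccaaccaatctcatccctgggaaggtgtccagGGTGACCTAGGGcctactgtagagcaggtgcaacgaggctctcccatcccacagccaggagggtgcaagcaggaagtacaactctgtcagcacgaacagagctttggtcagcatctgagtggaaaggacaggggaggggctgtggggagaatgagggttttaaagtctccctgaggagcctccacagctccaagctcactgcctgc

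The shared run GGTGACCTAGGG was picked as the longest common to these 3 paralogs, so its presence in them was fixed in advance. Searched on both strands, it was found in 8 of 32851 promoter windows of this length (0.0244%), all 8 among the 14 family promoters. Its first base lies 111 bases before the start in Klk1, 203 in Klk1b5 and 206 in Klk1b4. The shorter run CCACAGC, picked as the longest common to all 14 family promoters, was present in 6.93% of all windows. The E-box CACGTG was in none of the 14 and in 6.02% of all windows. Across the 91 pairs of family promoters, identity ranged from 44.2% to 89.7% with a median of 72.9%, and it was 87.2% between Klk1b4 and Klk1b5.

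Klk1, the kallikrein of glandular tissues, had 5128, 92.5 and 5602 CPM in c-Myc-high and 0.383, 1.54 and 0.552 CPM in c-Myc-low libraries. All c-Myc-high libraries lay above all c-Myc-low libraries, with replicate 2 far below the other c-Myc-high libraries. The log2 fold change of Klk1, annotated on chromosome 7 from 44225360 to 44229618, was 12.04 (SE 2.02, edgeR adjusted p = 0.58). Klk1b5 is a neighbour annotated from 44215945 to 44220703, and its window shown above, placed by RefSeq, lies inside that span. It had 2737, 41.2 and 1795 CPM against 0.255, 0.643 and 0.184 CPM. Its log2 fold change was 11.91 (SE 1.87, edgeR adjusted p = 0.58), again with replicate 2 between the other c-Myc-high libraries and the c-Myc-low class. Klk1b4 had 1007, 6.73 and 444 CPM against 0.128, 0.386 and 0.184 CPM, a log2 fold change of 10.86 (SE 1.92, edgeR adjusted p = 0.617).

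Further members were also lowest in replicate 2 within the c-Myc-high class, with very few counts in c-Myc-low cells. Klk1b21 had 402, 5.3 and 260 CPM in c-Myc-high libraries and 0 in all c-Myc-low libraries, at least 1561-fold higher against a floor of 3 counts over that group. Klk1b11, at 210, 3.46 and 143 CPM against 0, was at least 834-fold higher on the same floor. For Klk1b9 the ratio was 2656 (95% interval 476 to 104992), and for Klk1b3 it was 2408 (95% interval 666 to 19899). These intervals are exact binomial ones and, like the floor, cover counting error only. All 14 members passed the expression filter, and their log2 fold changes ranged from 7.62 to 13.08 with a median of 10.81. All 14 lay higher without overlap (3.28% of all genes did). All 14 also had a higher value at an unadjusted edgeR p under 0.05 (3.05% of all genes did). With c-Myc-low levels near 0, members passed the filter through c-Myc-high libraries, so these counts are no independent evidence of direction. The members are close paralogs, so reads may have been split between them and single members are uncertain.

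Summed over the family, c-Myc-high libraries had 10576, 172 and 8494 CPM and c-Myc-low libraries 1.2, 2.76 and 1.15 CPM. The sum ranged over more than an order of magnitude within the c-Myc-high class and stayed near 0 in the c-Myc-low class. In the primary tumours it was 2.31 and 84.5 CPM in c-Myc-high and 0.23 and 0.575 CPM in c-Myc-low libraries. DESeq2 called 8 of the 14 members higher, beside 0.44% of all genes. edgeR without c-Myc-high replicate 2 called 6 of the 14, beside 0.199%, among them Klk1 at an adjusted p of 0.0168 and Klk1b5 at 0.0123. Limma-trend on RPKM with the smaller pseudocount called Klk1 and Klk1b5, each at an adjusted p of 0.018, and no other gene.

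**Figure D2:**
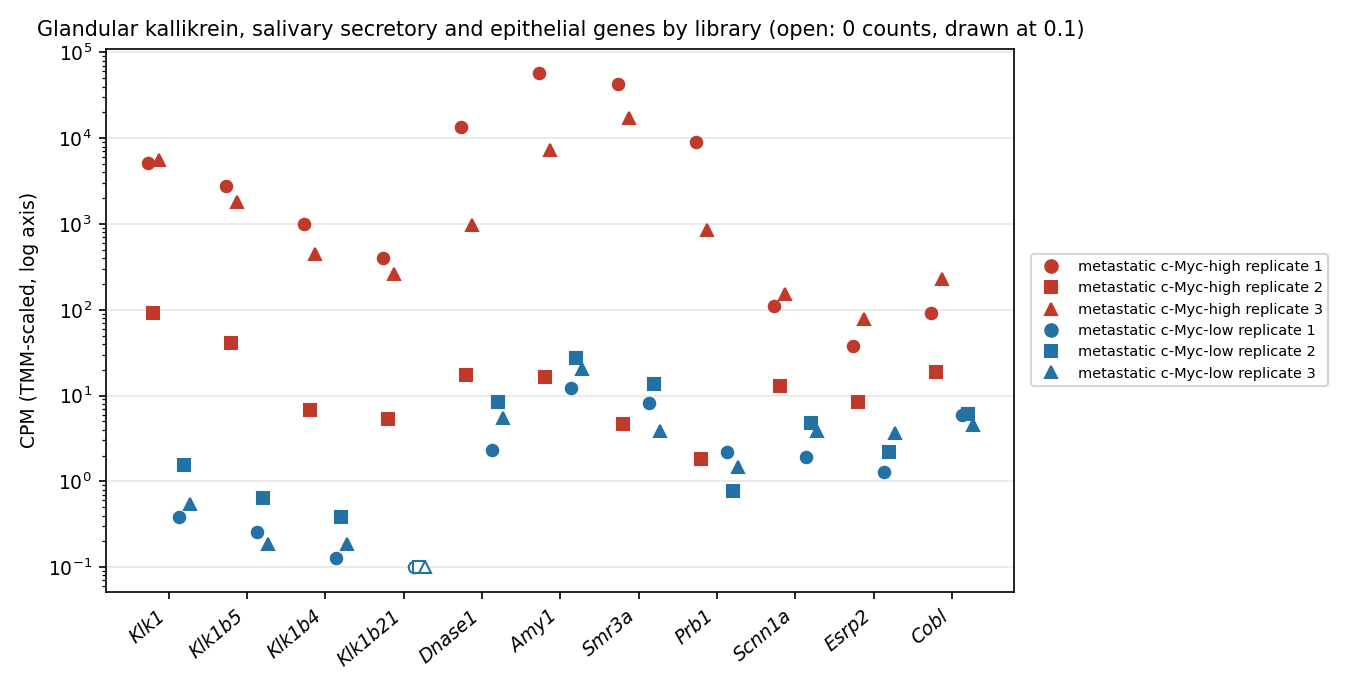
CPM (log axis) of kallikrein, salivary secretory and epithelial genes in each metastasis library, with red for c-Myc-high and blue for c-Myc-low, shapes for replicates and open symbols for 0 counts drawn at 0.1. For the kallikreins c-Myc-high replicate 2 lies between the other c-Myc-high libraries and the c-Myc-low libraries, whereas for Amy1, Smr3a and Prb1 it lies at the c-Myc-low level.

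Secretory genes of salivary glands had a different order of libraries, with c-Myc-high replicate 2 at the level of the c-Myc-low class. Amy1, salivary amylase, had 56859, 16.5 and 7305 CPM in c-Myc-high and 12.4, 27.3 and 20.4 CPM in c-Myc-low libraries. Prb1, a proline-rich salivary protein, had 9003, 1.83 and 853 CPM against 2.17, 0.772 and 1.47 CPM. Their log2 fold changes were 10.06 (SE 2.27) and 11.10 (SE 2.32), with edgeR adjusted p-values of 0.655 and 0.617. Smr3a, a submaxillary gland protein chosen here after its values were seen, had 42567, 4.69 and 17032 CPM against 8.3, 13.5 and 3.86 CPM. For these 3 genes the values of c-Myc-high replicate 2 lay among the c-Myc-low values, so the classes overlapped.

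The list of 20 salivary gland markers had 18 members tested, of which 17 had positive values. In the list, 13 had a higher value at an unadjusted edgeR p under 0.05 (3.05% of all genes did). It held 4 members that lay higher without overlap (3.28% of all genes did). Its median log2 fold change was 7.28, 7.90 without c-Myc-high replicate 2 and -1.24 without c-Myc-high replicates 1 and 3, beside 0.00, -0.14 and -0.15 over all genes tested. Summed over the list, the libraries had 225973, 167 and 67180 CPM in the c-Myc-high and 132, 823 and 80.7 CPM in the c-Myc-low class. This list was written with these values known and is no independent evidence of direction. DESeq2 called 10 of its members higher, beside 0.44% of all genes, and edgeR without c-Myc-high replicate 2 called 7, beside 0.199%. The list shares 3 members with the Klk1 family, Klk1, Klk1b22 and Klk1b26, which make up 3 of its 4 members without overlap, 3 of the 10 calls and 1 of the 7. The source of these transcripts was not tested. In bulk RNA of sorted cells, here and below, a different number of cells of a type and a different amount of RNA per cell cannot be told apart.

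The other 5 named genes of lowest p had edgeR adjusted p-values of 0.617 or 0.655 and did not pass. Dnase1, a secreted nuclease that is abundant in salivary glands, had 13646, 17.3 and 970 CPM in c-Myc-high and 2.3, 8.49 and 5.52 CPM in c-Myc-low libraries, a log2 fold change of 9.80 (SE 1.99, edgeR adjusted p = 0.617). Scnn1a, the alpha subunit of the epithelial sodium channel, had 111, 12.8 and 151 CPM against 1.91, 4.76 and 3.86 CPM. Its log2 fold change was 4.70 (SE 0.95, edgeR adjusted p = 0.617). No c-Myc-low library reached the lowest c-Myc-high library for either gene.

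Esrp2, an epithelial splicing regulator, had 37.4, 8.36 and 77.7 CPM against 1.28, 2.19 and 3.68 CPM, a log2 fold change of 4.10 (SE 0.86, edgeR adjusted p = 0.617). Cobl, an actin nucleator, had 90.7, 18.7 and 228 CPM against 6, 6.18 and 4.6 CPM, a log2 fold change of 4.32 (SE 0.89, edgeR adjusted p = 0.617). Ckmt1, a mitochondrial creatine kinase, had 192, 0.815 and 29.1 CPM against 0.128, 0.386 and 0 CPM. All of these genes kept c-Myc-high replicate 2 as the lowest c-Myc-high library. DESeq2 called each of them, with adjusted p-values of 1.74e-05 for Scnn1a, 1.60e-10 for Dnase1, 2.91e-04 for Esrp2, 8.86e-05 for Cobl and 6.40e-06 for Ckmt1. edgeR without c-Myc-high replicate 2 called all 5 as well.

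None of the genes with the lowest p-values in the other direction passed in edgeR. Thbs2, a matricellular thrombospondin, had 13.5, 13 and 13.8 CPM in c-Myc-high and 93.3, 82.7 and 43.8 CPM in c-Myc-low libraries. Its log2 fold change was -2.45 (SE 0.63, edgeR adjusted p = 0.804), and the c-Myc-high libraries were close together and below every c-Myc-low library. Myo7a, an unconventional myosin that takes part in melanosome movement in pigment epithelium, had 15.9, 29.1 and 23.5 CPM against 147, 97.4 and 85.1 CPM. The log2 fold change of Myo7a was -2.26 (SE 0.65, edgeR adjusted p = 0.935). DESeq2 called Thbs2 and Myo7a lower, at adjusted p-values of 0.00732 and 0.0241.

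Several low-p genes were at or near 0 in c-Myc-high libraries. Nbl1, a secreted BMP antagonist, had 0, 0.408 and 0 CPM against 17.1, 8.75 and 6.99 CPM, and the c-Myc-low level was higher by a ratio of 60.3 (95% interval 16.5 to 501, counting error only). Dimt1, an enzyme that methylates ribosomal RNA, had 0 counts in all c-Myc-high libraries and 5.36, 8.88 and 11.4 CPM in c-Myc-low libraries, at least 30.1-fold lower. Has2, a hyaluronan synthase, was also at 0 in all c-Myc-high libraries against 8.04, 5.66 and 0.552 CPM, at least 16.8-fold lower. The edgeR adjusted p-values were 0.786 for Nbl1, 0.863 for Dimt1 and 0.967 for Has2. DESeq2 called Nbl1 and Dimt1 lower, at adjusted p-values of 0.00987 and 0.0133, but not Has2, at 0.0906.

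Cacna2d1, a calcium channel subunit, had 0, 0.204 and 1.02 CPM against 11.1, 39.2 and 7.72 CPM. Nox4, an oxidase that produces hydrogen peroxide, had 1.08, 1.02 and 2.56 CPM against 21.6, 20.2 and 11.4 CPM, a log2 fold change of -3.54 (SE 1.14, edgeR adjusted p = 0.999). Pja2, a ubiquitin ligase, had 47.1, 37.1 and 30.7 CPM against 241, 181 and 99.3 CPM, a log2 fold change of -2.18 (SE 0.68, edgeR adjusted p = 0.999). For each of these genes the classes did not overlap, as the rule for naming them required. DESeq2 called Cacna2d1 lower, at an adjusted p of 0.0495, but not Nox4, at 0.0887, or Pja2, at 0.226.

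Fewer gene names were detected in the c-Myc-high class. After drawing 2600000 counts from each library, 16421, 17864 and 14703 gene names had a count in c-Myc-high libraries and 19169, 19907 and 18237 in c-Myc-low libraries. The classes did not overlap, and the difference in means was -2775 (exact two-sided permutation p = 0.1, the smallest that 20 arrangements of 3 against 3 allow). Salivary gland markers took 19%, 0.0189% and 4.97% of counts in the c-Myc-high and 0.0172%, 0.109% and 0.00924% in the c-Myc-low class. The part of this share in the difference was not tested. Fewer transcribed genes, less RNA input to the amplification and a different mix of cells cannot be told apart here.

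Myc itself had nearly equal levels in the sorted classes. Myc, on chromosome 15 from 61985391 to 61990374, had 148, 267 and 234 CPM in c-Myc-high and 101, 230 and 317 CPM in c-Myc-low libraries. The highest single value belonged to a c-Myc-low library, and the log2 fold change was 0.00 (SE 0.79, edgeR adjusted p = 1). Over 23 alternatives it ranged from -0.65 to 0.38, positive in 13 and negative in 8. The level of Myc mRNA did not separate the classes that the GFP sort defined.

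Max, the obligate partner of Myc, had 220, 246 and 678 CPM against 208, 176 and 187 CPM. Its classes did not overlap, but replicate 3 alone lay far above the rest, and the edgeR adjusted p was 1. On the deposited RPKM the classes overlapped for Max, at 15.8, 28 and 27.5 against 32.3, 23.1 and 17.6. Mnt, a Max-binding repressor, had 15.6, 42.4 and 111 CPM against 32, 36.9 and 43.8 CPM, and Mlx, a Max-like protein, had 23.7, 51.6 and 98.2 CPM against 27.7, 14.7 and 31.4 CPM. Of 10 tested members of the Myc and MAX network, 8 had positive values with a median of 0.44, and 0 passed. On the deposited RPKM 3 and 2 of the 10 had positive values at pseudocounts of 1 and 0.1. The medians there were -0.41 and -0.66, beside -0.36 and -0.86 over all genes.

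**Figure D3:**
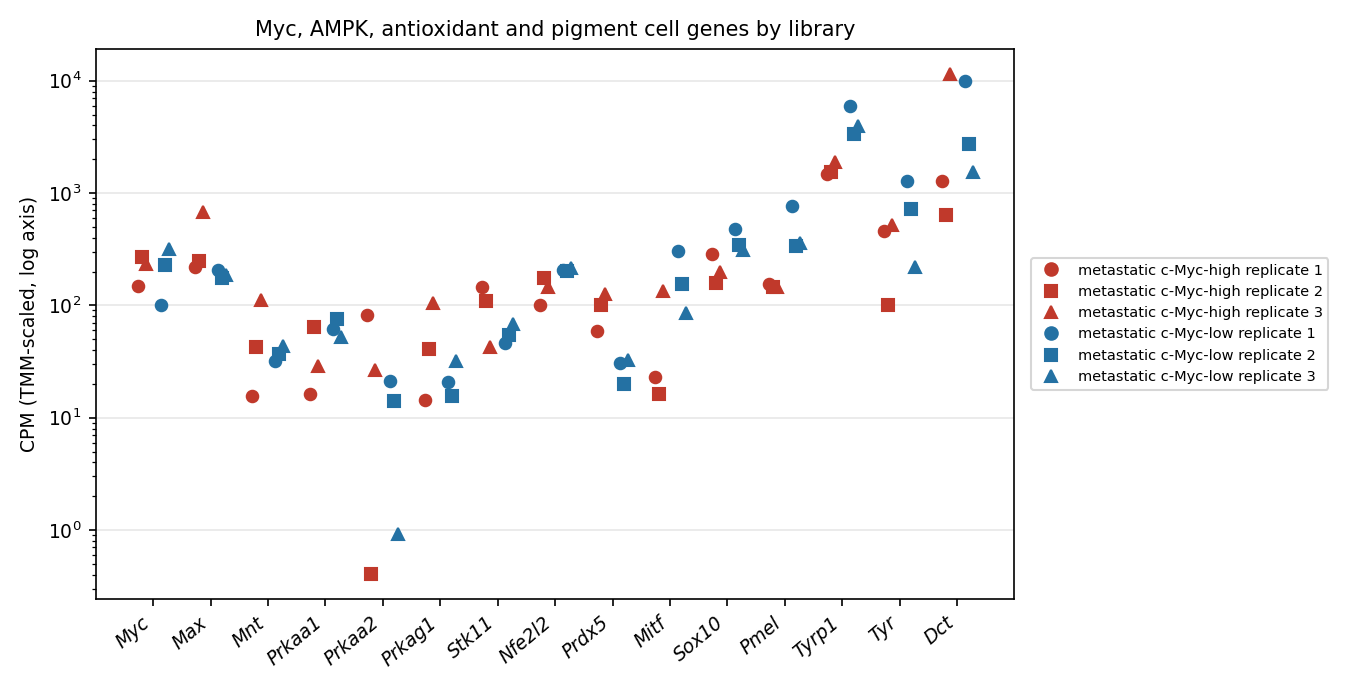
CPM (log axis) of Myc network, AMPK, antioxidant and pigment cell genes in each metastasis library, with red for c-Myc-high and blue for c-Myc-low and shapes for replicates. Myc overlaps between the classes, while Pmel and Tyrp1 lie lower in all 3 c-Myc-high libraries, at 146 to 154 and 1477 to 1907 CPM.

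Canonical Myc targets, genes widely used as a readout of Myc activity, had slightly higher CPM in c-Myc-high libraries, but mostly negative differences on the RPKM scale. Of 51 tested, 43 had positive values, 4 lay higher without overlap (3.28% of all genes did), 2 had a higher value at an unadjusted p under 0.05 (3.05% of all genes did), and 0 passed the adjusted threshold. The count at an unadjusted p is near the background. The median was 0.43, beside 0.00 over all genes tested, and 0.24 without c-Myc-high replicate 2 and 0.69 without replicates 1 and 3. Summed over the list, c-Myc-high libraries had 2544, 2572 and 3234 CPM and c-Myc-low libraries 1607, 1812 and 2002 CPM. The median of all genes moved between -0.86 and 0.09 over the settings, and the list's own median between -0.55 and 0.68. On the deposited RPKM, 11 and 8 of the 51 members had positive values at pseudocounts of 1 and 0.1, beside 3235 and 2529 of all 16805 genes. Relative to all genes, the list's median lay higher in 24 of 24 settings, by 0.12 to 0.83.

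Single targets rested on different libraries. Npm1, nucleophosmin of the nucleolus, had 25.8, 8.97 and 300 CPM against 8.04, 14.4 and 10.1 CPM, with only replicate 3 far above the c-Myc-low range. Phb2, a prohibitin of the inner mitochondrial membrane, had 642, 74 and 60.3 CPM against 41.6, 36.4 and 52.6 CPM, with replicate 1 far above the rest. Their log2 fold changes were 3.36 (SE 1.15, edgeR adjusted p = 0.999) and 2.57 (SE 0.96, edgeR adjusted p = 1). Both have retroposed pseudogenes, so their counts are uncertain. Shmt1, a one-carbon enzyme, had 19.6, 20.4 and 63.9 CPM against 5.1, 12.5 and 13.1 CPM, all c-Myc-high libraries above all c-Myc-low ones. Ncl, nucleolin, had 207, 191 and 464 CPM against 173, 219 and 165 CPM.

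The E-box CACGTG was searched in the 250 bases before the start, where c-Myc and Max can bind. Of 43 canonical targets with a matched RefSeq promoter, 10 held it (23.3%), beside 980 of 10383 tested genes with a promoter (9.44%). The median log2 fold change was 0.64 for the 10 targets with it and 0.36 for the 33 without, beside 0.11 and 0.00 over all matched genes. The promoter of Ldha, the lactate dehydrogenase subunit of glycolysis, is shown as an example of a target with 2 E-boxes, in capitals, from GRCm38.p6 on the plus strand.

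Ldha, chr7:46845554-46845803: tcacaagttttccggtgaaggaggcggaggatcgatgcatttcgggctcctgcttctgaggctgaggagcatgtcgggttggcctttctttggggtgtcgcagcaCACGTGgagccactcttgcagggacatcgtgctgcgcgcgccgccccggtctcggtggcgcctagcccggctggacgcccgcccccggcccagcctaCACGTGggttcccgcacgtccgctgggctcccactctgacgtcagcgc

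Ldha had 53.3, 74 and 176 CPM against 54.5, 30.8 and 49.8 CPM, with replicate 1 inside the c-Myc-low range, and a log2 fold change of 1.17 (SE 0.69, edgeR adjusted p = 1). Cdk4, a cell cycle kinase whose window held 4 E-boxes, had 59.5, 76.4 and 64.9 CPM against 74.5, 57.5 and 74.1 CPM, a log2 fold change of -0.04 (SE 0.62, edgeR adjusted p = 1). A match is a description of these letters and does not show binding.

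Of 40 ribosome biogenesis genes tested, 25 had positive values, with a median of 0.28 and 0 called. Nop16, a nucleolar protein, had 32, 7.34 and 165 CPM against 8.42, 7.72 and 5.33 CPM, and Rcl1, of small subunit processing, had 17.8, 16.7 and 208 CPM against 5.36, 8.75 and 10.7 CPM. Both had their highest value in replicate 3. Of 75 cytosolic ribosomal proteins, 62 had positive values with a median of 0.58 and 0 called. That median was -0.04 without c-Myc-high replicate 2 and 1.23 without replicates 1 and 3. Summed, these genes had 3680, 8437 and 2808 CPM against 2409, 2733 and 5232 CPM, with the highest value of each class in the library rich in leukocyte transcripts. On the deposited RPKM the medians of both lists were negative at pseudocounts of 1 and 0.1. They were -0.31 and -0.63 for ribosome biogenesis and -0.17 and -0.44 for ribosomal proteins, beside -0.36 and -0.86 over all genes. Relative to all genes, both medians lay higher in 24 of 24 settings, by 0.05 to 0.46 and by 0.10 to 1.37.

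Respiratory chain genes had mostly positive values on the CPM scale and mostly negative ones on the RPKM scale. Of 57 genes of the respiratory chain and ATP synthase tested, 55 had positive values, 8 lay higher without overlap (3.28% of all genes did), 3 had a higher value at an unadjusted p under 0.05 (3.05% of all genes did), and 0 passed. On the deposited RPKM 19 of the 57 had positive values at either pseudocount, and the list's median was -0.18 and -0.25, beside -0.36 and -0.86 over all genes. On the CPM scale the median was 0.65, 0.83 without c-Myc-high replicate 2 and 0.41 without replicates 1 and 3. The median lay above that of all genes in 24 of 24 settings, by 0.18 to 1.03. Summed, c-Myc-high libraries had 6460, 4457 and 7312 CPM and c-Myc-low libraries 4852, 2840 and 3243 CPM, so c-Myc-high replicate 2 lay below c-Myc-low replicate 1.

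Among them, Atp5h, a subunit of ATP synthase, had 24, 16.5 and 79.3 CPM against 9.06, 6.3 and 15.6 CPM, without overlap. Ndufb8, of complex I, had 67, 75.8 and 353 CPM against 70.3, 27.3 and 18.8 CPM, and Ndufa5, of the same complex, had 4.58, 24.3 and 132 CPM against 11.7, 4.25 and 4.05 CPM. In both complex I genes replicate 1 fell within the c-Myc-low range. Their log2 fold changes were 1.94 (SE 0.90), 2.09 (SE 0.84) and 2.99 (SE 1.15), each with an edgeR adjusted p of 1.

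In the list of fatty acid oxidation and the TCA cycle, 22 of 32 genes had positive values, with a median of 0.20. Mdh2, mitochondrial malate dehydrogenase, had 333, 107 and 800 CPM against 158, 102 and 93.4 CPM, with replicate 2 inside the c-Myc-low range. Of 27 glycolysis genes 17 had positive values, with a median of 0.17. The lists of DNA replication and of mitosis had medians of 0.34 and 0.33, with 30 of 39 and 26 of 35 positive. Without c-Myc-high replicate 2 these medians were -0.07 and 0.36, and without replicates 1 and 3 they were 0.63 and 0.55. Ccnb2, a mitotic cyclin, had 14, 18.7 and 541 CPM against 16.2, 10.9 and 16.7 CPM, high in replicate 3 alone. The medians of the fatty acid and TCA list and of glycolysis were -0.20 and -0.29 without c-Myc-high replicates 1 and 3. On the deposited RPKM fewer members had positive values at pseudocounts of 1 and 0.1. There were 6 and 6 for fatty acid oxidation and TCA and 4 and 3 for glycolysis. For DNA replication there were 4 and 3, and for mitosis 8 and 7. The medians of DNA replication were -0.22 and -0.62 and of mitosis -0.23 and -0.52, beside -0.36 and -0.86 over all genes. None of these lists held a called gene.

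**Figure D4:**
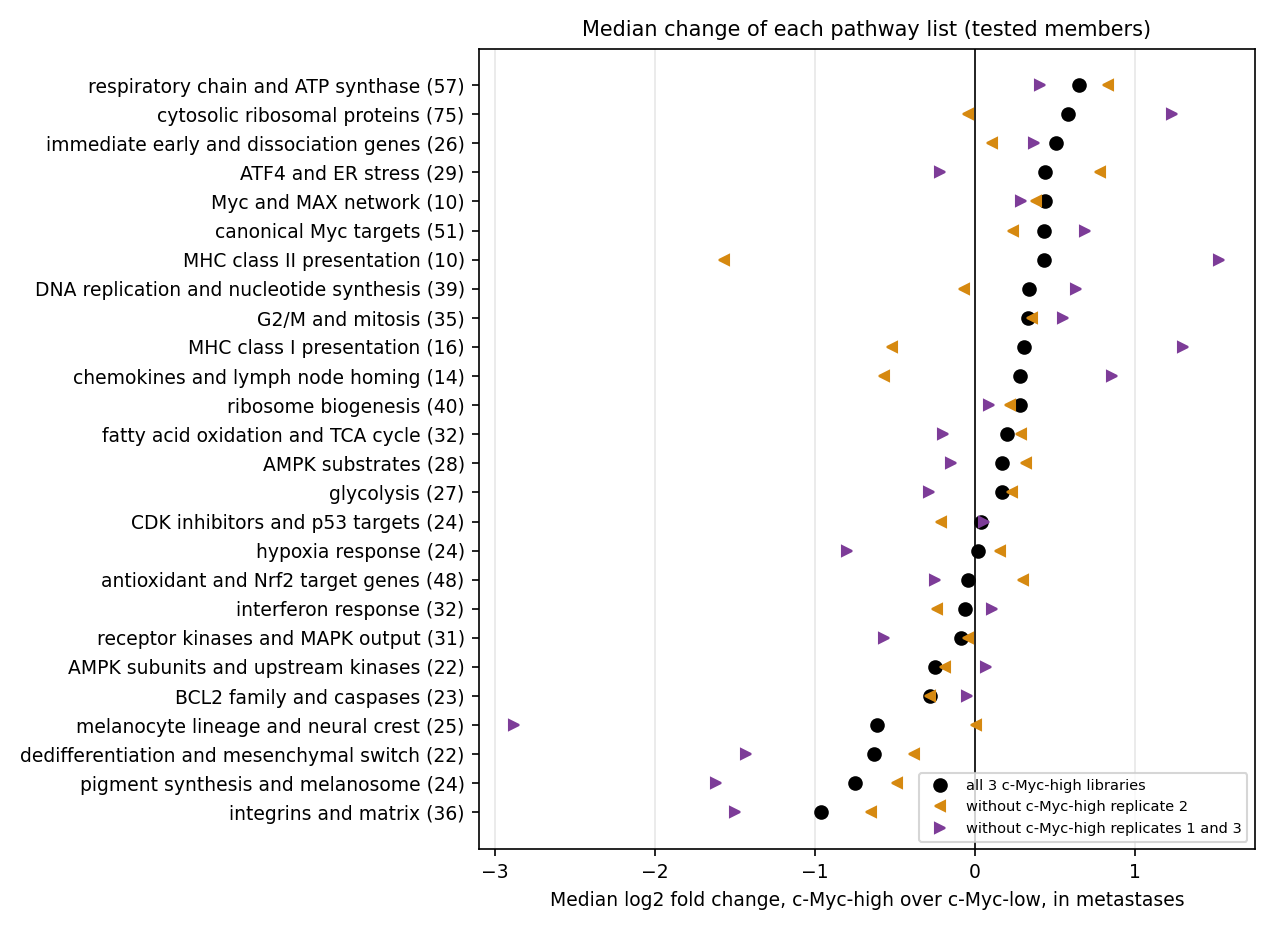
Median log2 fold change (c-Myc-high over c-Myc-low in metastases) of each of 26 pathway lists, with the number of members tested in parentheses. Circles use all c-Myc-high libraries and triangles leave out replicate 2 or replicates 1 and 3. In these fits to counts, unlike on RPKM (-0.18 and -0.25), respiratory chain genes stay above 0 (0.65, 0.83 and 0.41) while integrin and matrix genes stay below it (-0.96, -0.65 and -1.50).

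AMPK genes showed no common direction. Of 22 subunit and upstream kinase genes tested, 9 had positive and 13 negative values, with a median of -0.25, 0.07 without c-Myc-high replicates 1 and 3, and 0 called. Prkaa1, a catalytic subunit, had 16.1, 63.6 and 29.1 CPM against 62, 75.5 and 52.8 CPM, and Prkaa2, the other catalytic subunit, had 81.3, 0.408 and 26.6 CPM against 21.4, 14.2 and 0.919 CPM. The classes overlapped for both, with log2 fold changes of -0.80 (SE 0.69, edgeR adjusted p = 1) and 1.56 (SE 1.40, edgeR adjusted p = 1). Prkaa2 was near 0 in c-Myc-high replicate 2 and c-Myc-low replicate 3, the pair rich in leukocyte transcripts.

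Of the regulatory subunits, Prkab1 had 36.3, 53.6 and 6.14 CPM against 13.3, 16.6 and 34.8 CPM, a log2 fold change of 0.58 (SE 0.94). Prkag1, which binds adenine nucleotides, had 14.5, 40.8 and 105 CPM against 20.7, 15.6 and 32 CPM, a log2 fold change of 1.23 (SE 0.78). Neither separated the classes, and each had an edgeR adjusted p of 1. Stk11, which encodes the upstream kinase LKB1, had 147, 109 and 42.4 CPM against 46.3, 54.9 and 68.6 CPM. Sesn3, a sestrin that promotes AMPK activity, had 17, 12.4 and 5.11 CPM against 48.4, 39.2 and 29.4 CPM. Sesn3 was the only 1 of the 22 subunit and upstream kinase genes to lie lower without overlap (7.65% of all genes did). Its log2 fold change was -1.75 (SE 0.88, edgeR adjusted p = 1).

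Of 28 AMPK substrates 17 had positive values, with a median of 0.17, or -0.15 without c-Myc-high replicates 1 and 3. Acaca, acetyl-CoA carboxylase, which AMPK inhibits, had 9.42, 12 and 14.3 CPM against 36.5, 26.8 and 15.4 CPM. Crtc2, a coactivator held in the cytoplasm when phosphorylated, had 107, 104 and 398 CPM against 47.9, 65.2 and 93.6 CPM. The first lay lower and the second higher without overlap, with log2 fold changes of -1.14 (SE 0.68) and 1.56 (SE 0.95) and an edgeR adjusted p of 1 each. On the deposited RPKM the classes overlapped for Crtc2, at 5.17, 12.2 and 49.6 against 9.87, 12.9 and 9.

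Antioxidant genes had about as many positive as negative values. Of 48 antioxidant and Nrf2 target genes tested, 23 had positive and 25 negative values, with a median of -0.04, or 0.30 without c-Myc-high replicate 2. Of these, 3 lay higher without overlap, beside 3.28% of all genes, and 3 lower, beside 7.65%. Nfe2l2, which encodes Nrf2, the main activator of antioxidant genes, had 100, 175 and 145 CPM against 207, 203 and 213 CPM. All c-Myc-high libraries lay below the narrow c-Myc-low range, with a log2 fold change of -0.57 (SE 0.64, edgeR adjusted p = 1). Prdx5, a mitochondrial and peroxisomal peroxiredoxin, had 59.5, 100 and 125 CPM against 30.8, 20.1 and 32.4 CPM. It lay higher without overlap, at 1.77 (SE 0.60, edgeR adjusted p = 0.999). On the deposited RPKM the classes overlapped for Prdx5, at 8.71, 23.9 and 5.85 against 10.1, 5.12 and 6.29.

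Sod2, mitochondrial superoxide dismutase, had 60.6, 26.1 and 133 CPM against 38.2, 21.4 and 22.2 CPM. Srxn1, which repairs overoxidised peroxiredoxins, had 36.1, 9.99 and 238 CPM against 36.4, 16.9 and 6.07 CPM. Both overlapped between the classes and were highest in c-Myc-high replicate 3. Gpx7, a peroxidase of the endoplasmic reticulum, had 0, 0.815 and 2.05 CPM against 10.5, 5.28 and 4.6 CPM and lay lower without overlap.

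No gene of the stress and cell death lists passed. In the list of ATF4 and endoplasmic reticulum stress 22 of 29 had positive values, with a median of 0.44, 0.78 without c-Myc-high replicate 2 and -0.22 without replicates 1 and 3. Of its members 1 lay higher and 2 lower without overlap, beside 3.28% and 7.65% of all genes. On the deposited RPKM 5 and 3 of the 29 had positive values at pseudocounts of 1 and 0.1. Chac1, an ATF4 target that degrades glutathione, had 30.7, 6.73 and 11.8 CPM against 2.04, 0.257 and 0.552 CPM. It lay higher without overlap, at 4.06 (SE 1.43, edgeR adjusted p = 0.999). Atf4 had 248, 268 and 524 CPM against 122, 106 and 255 CPM, and Ddit3, which encodes CHOP, had 88.8, 20.8 and 312 CPM against 33.2, 31.3 and 32.4 CPM.

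Among 24 CDK inhibitor and p53 target genes 13 had positive values, with a median of 0.04, or -0.21 without c-Myc-high replicate 2. Of these 24, 2 lay higher and 2 lower without overlap, beside 3.28% and 7.65% of all genes. Bbc3, the death inducer PUMA, had 29.6, 2.04 and 37.8 CPM against 0.51, 0.772 and 2.39 CPM, with replicate 2 inside the c-Myc-low range. Plk2, a p53-induced kinase, had 38.2, 20.8 and 42.4 CPM against 115, 94.1 and 47.4 CPM, lower without overlap. Of 23 BCL2 family and caspase genes 11 had positive values, with a median of -0.28. Bax, a pore-forming death protein, had 29.1, 42.8 and 122 CPM against 16.6, 19.3 and 26.7 CPM, higher without overlap. On the deposited RPKM the classes overlapped for Bax, at 4.79, 11.2 and 11.4 against 5.9, 5.84 and 5.75.

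Most pigment genes had negative values, but the list's sum overlapped between the classes. Of 24 genes of pigment synthesis and the melanosome, 19 had negative and 5 positive values, 7 lay lower without overlap (7.65% of all genes did), 2 had a lower value at an unadjusted p under 0.05 (1.76% of all genes did), and 0 passed. Summed, c-Myc-high libraries had 5790, 3724 and 18434 CPM and c-Myc-low libraries 24009, 10555 and 8603 CPM, so c-Myc-high replicate 3 lay above c-Myc-low replicates 2 and 3. The median was -0.75, -0.49 without c-Myc-high replicate 2 and -1.62 without replicates 1 and 3, and it lay below that of all genes in 24 of 24 settings, by -1.48 to -0.15. Pmel, the fibril protein of melanosomes, had 154, 146 and 147 CPM against 767, 335 and 357 CPM. Tyrp1, an enzyme of eumelanin synthesis, had 1477, 1550 and 1907 CPM against 5995, 3380 and 3957 CPM. In both genes the c-Myc-high libraries were close together and below all c-Myc-low libraries, with log2 fold changes of -1.70 (SE 0.61, edgeR adjusted p = 0.999) and -1.43 (SE 0.82, edgeR adjusted p = 1).

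Some other pigment cell genes overlapped between the classes. Dct, of the same enzyme family, had 1292, 643 and 11530 CPM against 9853, 2746 and 1533 CPM, with the highest value in c-Myc-high replicate 3 and a log2 fold change of -0.07 (SE 1.08). Tyr, tyrosinase, had 459, 100 and 519 CPM against 1274, 717 and 218 CPM, a log2 fold change of -1.03 (SE 0.91). Mreg, melanoregulin, had 8.88, 9.99 and 92 CPM against 11, 10.6 and 9.93 CPM.

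Of 25 melanocyte lineage and neural crest genes 16 had negative values, with a median of -0.61. This median was 0.01 without c-Myc-high replicate 2 and -2.88 without replicates 1 and 3. Mitf, the master regulator of pigment cells, had 23.1, 16.3 and 135 CPM against 306, 154 and 85.1 CPM, a log2 fold change of -1.64 (SE 0.91, edgeR adjusted p = 1). Sox10, a neural crest regulator, had 289, 158 and 197 CPM against 481, 345 and 314 CPM, lower without overlap at -0.82 (SE 0.86, edgeR adjusted p = 1). Erbb3, a neuregulin receptor, had 121, 31 and 74.1 CPM against 369, 229 and 113 CPM, with c-Myc-high replicate 1 just above c-Myc-low replicate 3.

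Most matrix and adhesion genes had negative values. Of 36 genes of integrins and matrix 26 had negative and 10 positive values, 7 lay lower without overlap (7.65% of all genes did) and 0 passed. Summed, c-Myc-high libraries had 3961, 2187 and 4632 CPM and c-Myc-low libraries 7081, 5404 and 3756 CPM, which overlapped. The median was -0.96, -0.65 without c-Myc-high replicate 2 and -1.50 without replicates 1 and 3. Timp2, an inhibitor of metalloproteases, had 209, 169 and 237 CPM against 628, 458 and 307 CPM. Itgav, the integrin alpha V chain, had 236, 83.6 and 151 CPM against 566, 416 and 200 CPM. Timp2 was separated between the classes and Itgav was not, with log2 fold changes of -1.18 (SE 0.58) and -1.33 (SE 0.71), each with an edgeR adjusted p of 1.

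All 12 fibroblast markers had negative values, with a median of -1.09, but 0 lay without overlap. The median was -2.93 without c-Myc-high replicate 2 and -0.64 without replicates 1 and 3. Summed, they had 86.3, 828 and 264 CPM against 1076, 890 and 311 CPM, so the classes overlapped. Postn, periostin, had 16.7, 115 and 85.4 CPM against 343, 199 and 47.4 CPM, and Pdgfra, a receptor of fibroblasts, had 2.42, 0.408 and 0 CPM against 11.2, 27.8 and 0.368 CPM. The part of these cells in the lower matrix values was not tested. Of 22 dedifferentiation genes 14 had negative values, with a median of -0.63, -0.38 without c-Myc-high replicate 2 and -1.43 without replicates 1 and 3. Axl, a receptor kinase of that state, had 40.6, 14.7 and 12.3 CPM against 54.1, 104 and 49.1 CPM, lower without overlap.

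The remaining pathway lists held 0 called genes. The median was -0.09 for 31 receptor kinase and MAPK genes, 0.02 for 24 hypoxia genes, -0.06 for 32 interferon response genes and 0.51 for 26 immediate early genes, which also respond to tissue dissociation. The MAPK and hypoxia medians were -0.57 and -0.80 without c-Myc-high replicates 1 and 3, and that of the immediate early genes 0.11 without replicate 2. Single genes were high in replicate 3 alone. Adm, adrenomedullin, induced by hypoxia, had 21.8, 4.69 and 1708 CPM against 35.5, 7.85 and 2.76 CPM, and Dusp6, the feedback phosphatase of ERK, had 78.3, 36.1 and 1396 CPM against 120, 89.2 and 35.3 CPM. Without c-Myc-high replicate 3, edgeR also called 0 genes.

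Lymphoid and myeloid transcripts followed single libraries rather than the sorted classes. The 10 pan-leukocyte markers summed to 1240, 4927 and 387 CPM in c-Myc-high and 467, 1573 and 3218 CPM in c-Myc-low libraries, and none of them lay without overlap. Neutrophil markers summed to 83.3, 13918 and 348 CPM against 200, 225 and 4418 CPM, and B cell markers to 1398, 8080 and 177 CPM against 371, 2237 and 6612 CPM. S100a9, a calprotectin chain of neutrophils, had 54.1, 8260 and 40.9 CPM against 118, 112 and 2665 CPM. Ptprc, the leukocyte antigen CD45, had 240, 620 and 55.7 CPM against 81.3, 485 and 586 CPM, a log2 fold change of -0.33 (SE 0.92, edgeR adjusted p = 1).

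The list medians for MHC genes moved with these libraries. For 10 MHC class II genes the median was 0.43, -1.57 without c-Myc-high replicate 2 and 1.53 without replicates 1 and 3. H2-Aa, an MHC class II chain, had 1191, 2367 and 50.6 CPM against 167, 900 and 1245 CPM. For 16 MHC class I genes these medians were 0.31, -0.52 and 1.30, and for 14 chemokine and homing genes 0.28, -0.57 and 0.86. The part of leukocytes in these values was not tested.

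The melanocytic markers, which check the labelled cell type, were present in every library and summed to 4150, 2800 and 15306 CPM in c-Myc-high and 19895, 8577 and 6752 CPM in c-Myc-low libraries. All 10 had negative values, 3 without overlap (7.65% of all genes lay lower so), namely Sox10, Pmel and Tyrp1, already given above. Pmel and Tyrp1 also belong to the pigment list and Mitf to the lineage list, so these lists are not separate evidence. The median of the 10 melanocytic markers was -0.89, -0.53 without c-Myc-high replicate 2 and -2.44 without replicates 1 and 3. The lowest sum was in c-Myc-high replicate 2, the library with the highest leukocyte sum. Keratinocyte markers summed to 115, 33.5 and 355 CPM against 31.7, 42.6 and 37.9 CPM, with Sfn, an epithelial 14-3-3 protein, at 268 CPM in c-Myc-high replicate 3 and between 1.66 and 5.38 CPM in the other libraries. The part of other cells in the lower pigment values was not tested.

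**Figure D5:**
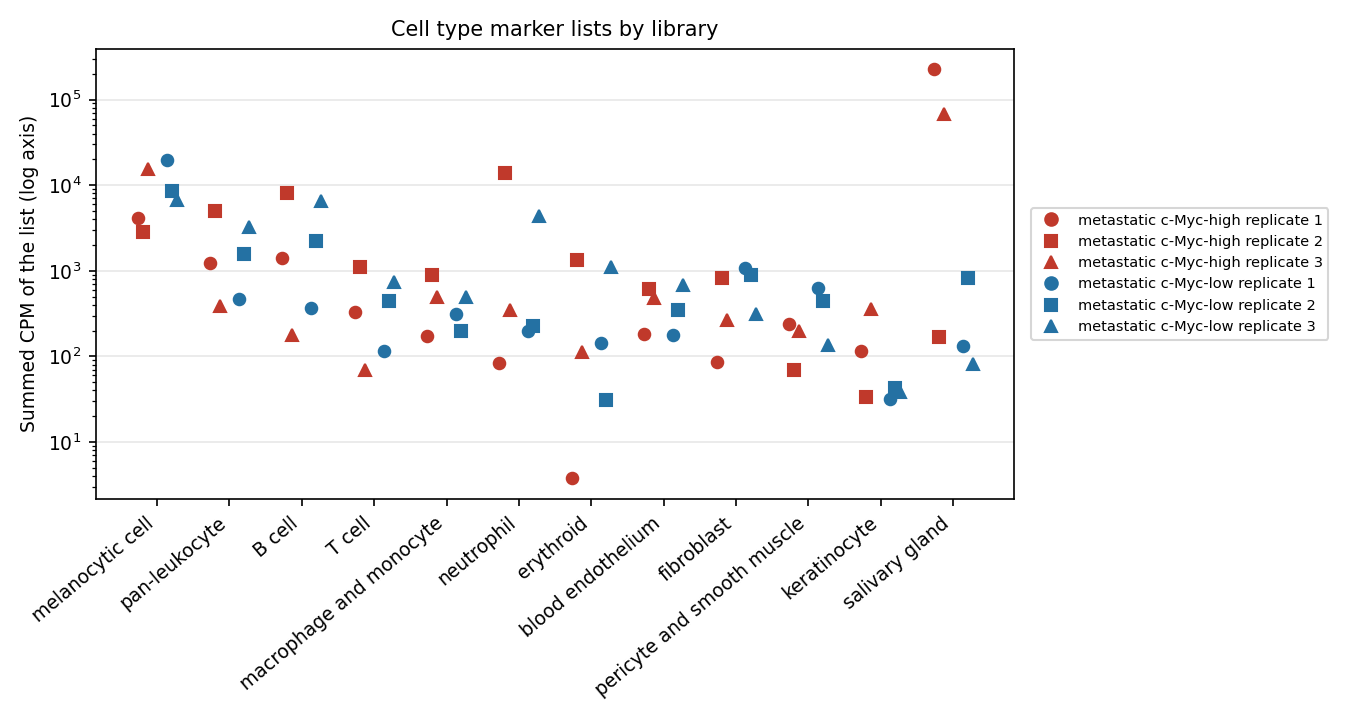
Summed CPM (log axis) of cell type marker lists in each metastasis library, with red for c-Myc-high and blue for c-Myc-low and shapes for replicates. Salivary gland markers reach 225973 and 67180 CPM in c-Myc-high replicates 1 and 3, and neutrophil markers 13918 and 4418 CPM in c-Myc-high replicate 2 and c-Myc-low replicate 3.

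Whether the difference between classes depended on the site was tested with the primary tumours. No gene passed (0%), with 1150 of 16805 (6.84%) at an unadjusted p under 0.05 in edgeR's test of the difference between sites, and DESeq2 called 85. For Klk1 the difference between sites was 5.04 (edgeR unadjusted p = 0.111), for Dnase1 8.74 (edgeR unadjusted p = 0.00523) and for Esrp2 4.38 (edgeR unadjusted p = 0.00451), none of which passed after adjustment. The median difference between sites was -1.31 for the pigment list and -1.27 for the integrin and matrix list, beside 0.21 over all genes. For canonical Myc targets it was -0.30, with a median of 0.67 in primary and 0.43 in metastatic cells.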

How the data were processed

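RNA was sequenced from sorted mouse melanoma cells in 10 libraries, of which the 6 from lymph node metastases were compared and all 10 were fitted. The authors deposited estimated counts and RPKM values for 92214 transcripts. Reads were aligned with Bowtie2 to mm10, and limma is also named, per the submitters' processing notes. The labels name neither the program that assigned reads nor the annotation release or strandedness, so overlapping and near-identical genes are uncertain. The deposited counts were summed over transcripts by gene name (34162 names) and rounded. Genes were filtered with filterByExpr, scaled with TMM factors and tested with edgeR 4.0.16 (robust quasi-likelihood, 4 groups, R 4.3.3). P-values were adjusted by Benjamini-Hochberg over 16805 genes at 0.05, and standard errors derive from the F statistic.

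DESeq2 1.42.0, limma 3.58.1 (voom, and the deposited RPKM on the log2 scale with pseudocounts 1 and 0.1), other scalings and filters, and leaving out libraries were alternatives. Scripts were tested on simulated data. The members and lists (26 of pathways and 21 of cell types) were chosen with earlier results of these data known. Named genes were a panel of Myc, AMPK, Nrf2, pigment and leukocyte genes, the 12 of lowest p per direction without overlap and a mean log2 CPM above 2, and 4 of lowest p per list. Smr3a, Ncl and Cdk4 were added after their values were seen. Bounds use a floor of 3 counts over a group, and the depth of 2641865 to 6009730 counts per metastasis library limits low genes. Positions come from GENCODE on GRCm38 and promoters from RefSeq, whose starts can differ. The windows shown for Klk1b5 and Ldha lie inside the GENCODE spans of these genes.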

Additional observations from a re-analysis of the deposited data

How the results depend on the processing

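edgeR's counts of 0 higher and 0 lower genes stayed at 0 with limma-voom, RPKM at a pseudocount of 1, other scalings and filters, 1 transcript per gene and the 6 metastasis libraries alone. DESeq2 gave 71 higher, 15 lower and 85 that differed between sites, and RPKM with a pseudocount of 0.1 gave 2 higher. An unadjusted p under 0.05 gave 512 higher, 295 lower and 1150 between sites, and no filter on low counts gave 1 between sites. Leaving out 1 library gave 0 to 33 higher, 33 only without c-Myc-high replicate 2, and 0 lower. At an unadjusted p, the split of higher and lower genes was 577 and 256 with median ratio factors, 453 and 339 with upper-quartile factors, 360 and 519 with voom and 106 and 925 with RPKM at a pseudocount of 1. The median of all genes moved between -0.86 and 0.09 over the settings. Of 201 named genes, 92 changed sign in at least 1 of 23 alternatives, and 21 passed the threshold in at least 1. The cause of these differences was not tested. The difference in detected genes was -2550 with fewer counts drawn, -6823 for transcripts and -3542 to -1962 without 1 library. It was -2831 for genes with 10 or more counts when no counts were drawn. Depth was then not equalised, and it was lower in every c-Myc-high library than in any c-Myc-low library. Leaving out both libraries rich in salivary transcripts, and taking salivary genes out before scaling, were chosen after seeing the data and gave 0 calls each.

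Whether libraries of the same replicate number belong together is not known. After the class mean of each gene's log2 CPM was subtracted, same-numbered libraries correlated at 0.087, -0.193 and -0.305. No c-Myc-high library correlated best with its own number. With 3 libraries per class, which also differ in salivary and leukocyte transcripts, these values cannot decide whether libraries are paired. With the replicate number as a block, 0 genes were higher, 0 lower and 0 differed between sites. Depth limits genes under about 1.14 CPM.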
